A study of Macaca mulatta with 9 samples.

Results

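The 7 genes described here, LOC703074, LOC712263, TCL1B, ERFE, NELL1, MROH1 and UPB1, are little known in the ovary and were chosen by a measured fall of their array intensity in old rhesus monkey ovaries. All 11 probe sets that carry 1 of these symbols in the array annotation were taken, of 52766 probe sets tested and 14132 named genes. The fall in old ovaries chose the genes, so their differences that involve the old ovaries are a description, and counts of limma calls for them are given for scale and not as a test. NLRP5 and ZP3, with 1 probe set each, served as oocyte references.

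The study hybridized ovarian RNA of 9 female rhesus monkeys (Macaca mulatta) to 9 Affymetrix rhesus arrays, 1 monkey per array. The 3 young monkeys were 3 to 4 years old and had normal cycles but had never bred, the 3 middle-aged monkeys were 7 to 8 years old with good reproductive capacity, and the 3 old monkeys were 18 to 19 years old and had lost theirs. A piece of 1 ovary per monkey was used, with all its cell types, and the young and middle-aged ovaries were taken at about proestrus. No group carried a treatment or a genetic change. Each value is a probe set intensity on a linear scale, deposited after RMA according to the labels. Array medians lay between 24.2 and 25.8 and first quartiles between 9.0 and 9.57, and detection calls are not given in the sources used here.

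The ovary holds a reserve of follicles, each an oocyte wrapped in granulosa cells, and this reserve runs down with age. A growing oocyte stores maternal RNAs and proteins that carry the embryo through its first divisions. NLRP5 is a part of the subcortical maternal complex of the oocyte, and ZP3 is a protein of the zona pellucida, the coat around it. The study counted follicles in sections of the same ovaries. Their number fell from young to middle-aged ovaries, and only a few were left in old ones. A whole ovary mixes these cells with stroma, vessels and blood, so the arrays alone cannot tell fewer oocytes from less RNA per oocyte.

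The oocyte references set the scale. NLRP5 (MmuSTS.1762.1.S1_at) had intensities of 583.5, 1255.2 and 1630.2 in young ovaries 1 to 3, 249.9, 344.4 and 1420.7 in middle-aged ovaries 1 to 3, and 5.9, 5.5 and 11.4 in old ovaries 1 to 3. ZP3 (MmugDNA.16160.1.S1_at) had 582.4, 1742.2 and 2835.2 in young, 377.1, 443.2 and 1379.5 in middle-aged, and 52.4, 46.3 and 49.4 in old ovaries. For both genes the old ovaries lay below all 6 others, and young 1, middle-aged 1 and middle-aged 2 were the lower ones among those 6.

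LOC703074 had 2 probe sets, both far lower in old ovaries. The study's supplement describes the gene as similar to a tubulin, the protein of microtubules, whereas the RefSeq annotation of assembly T2T-MMU8v2.0 lists it as a transcribed pseudogene. Its probe set MmugDNA.7990.1.S1_s_at had intensities of 3080.9, 7017.8 and 7053.5 in young, 3370.4, 5817.0 and 4244.0 in middle-aged, and 19.7, 19.1 and 40.9 in old ovaries. The old values lay below all others, and the lowest of the 6 younger ovaries was 75.3 times the highest old one. The second probe set, MmugDNA.7990.1.S1_at, had 3074.5, 5197.6 and 6008.9 in young, 2613.2, 6143.8 and 4384.3 in middle-aged, and 84.5, 112.2 and 187.8 in old ovaries. Old ovary 3 was the highest of the old ones on both probe sets. The log2 fold changes of old over young ovaries were -7.75 and -5.24 for these probe sets. The study's qRT-PCR, with primers designed for this gene, also gave lower levels in old than in young and middle-aged ovaries. In Affymetrix naming the ending s_at marks probes that several transcripts may share, and which tubulin-like copy gave the array signal was not tested here.

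LOC712263 is described by the study as similar to stella, a maternal factor that in the mouse protects the DNA methylation of the egg's genome after fertilization, and RefSeq lists it as a pseudogene. MmugDNA.23108.1.S1_at had intensities of 203.3, 472.1 and 582.9 in young, 96.7, 325.6 and 451.0 in middle-aged, and 8.2, 8.1 and 11.6 in old ovaries. Middle-aged ovary 1 was the lowest of the younger ones and still 8.32 times the highest old value. The log2 fold change of old over young ovaries was -5.38. DPPA3 itself, the gene of stella, had no probe set under its symbol and was not analysed here.

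TCL1B belongs to the TCL1 family, whose founder binds the kinase AKT and raises its activity. MmuSTS.3968.1.S1_at had intensities of 126.3, 162.0 and 232.6 in young, 77.0, 119.8 and 151.3 in middle-aged, and 14.7, 20.1 and 13.7 in old ovaries. The young and middle-aged values overlapped, and the old values lay below both. The log2 fold change of old over young ovaries was -3.40.

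ERFE encodes erythroferrone, a hormone that red cell precursors release and that lowers the iron regulator hepcidin in the liver. MmugDNA.39319.1.S1_at had intensities of 115.3, 261.7 and 290.0 in young, 89.0, 136.3 and 257.8 in middle-aged, and 9.9, 8.6 and 9.1 in old ovaries. The 3 old values differed little and sat at about the first quartile of their arrays. The log2 fold change of old over young ovaries was -4.49. The erythroid markers did not move together. Their summed intensity over 6 measured of 11 genes was 404 to 672 in young, 896 to 1592 in middle-aged and 1079 to 2839 in old ovaries. HBB, a beta-type globin gene that made up most of this sum, averaged 397 in young, 1056 in middle-aged and 1684 in old ovaries. EPB42, a protein of the red cell membrane skeleton, averaged 26.8, 20.8 and 17.7 in young, middle-aged and old ovaries. KLF1, GATA1 and ALAS2 had log2 fold changes of old over young ovaries of -0.11, 0.14 and 0.16, and no erythroid marker was called with limma. HBA1 was not analysed here, and AHSP, which stabilizes free alpha globin, averaged 6.47, 7.33 and 7.08 in young, middle-aged and old ovaries.

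UPB1 encodes beta-ureidopropionase, the enzyme of the last step of pyrimidine breakdown. MmugDNA.16755.1.S1_at had intensities of 261.9, 667.1 and 772.2 in young, 96.8, 200.9 and 794.0 in middle-aged, and 11.3, 11.2 and 9.9 in old ovaries. The second probe set, MmugDNA.41133.1.S1_at, had 173.6, 384.9 and 416.0 in young, 100.7, 158.3 and 332.4 in middle-aged, and 67.8, 32.1 and 72.1 in old ovaries. Both put middle-aged 1 lowest among the younger ovaries. The margin between the lowest younger and the highest old value was 8.59-fold on the first and 1.4-fold on the second. Their log2 fold changes of old over young ovaries were -5.57 and -2.49.

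MROH1, a gene of the maestro HEAT-like repeat family, had 3 probe sets that did not move alike. MmuSTS.1992.1.S1_at had intensities of 86.7, 170.6 and 160.4 in young, 60.3, 103.4 and 173.4 in middle-aged, and 7.9, 9.0 and 8.1 in old ovaries. MmugDNA.30415.1.S1_at had 69.0, 76.1 and 72.0 in young, 92.0, 82.2 and 73.1 in middle-aged, and 97.2, 91.1 and 82.2 in old ovaries. MmugDNA.36353.1.S1_at had 14.5, 19.5 and 32.8 in young, 16.01, 11.55 and 17.42 in middle-aged, and 29.3, 13.3 and 15.8 in old ovaries. Only on the first of the 3 did the old ovaries lie below the others. Old over young ovaries gave log2 fold changes of -4.00, 0.32 and -0.20 in that order. Across all 9 arrays the first and second probe sets had a Pearson r of -0.72, and the first and the third one of 0.04, given as a description. The choice of the gene thus rests on 1 of its 3 probe sets, and which transcript each measures was not tested.

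NELL1 encodes a secreted protein with EGF-like repeats that promotes bone formation. MmugDNA.20157.1.S1_at had intensities of 70.6, 46.0 and 44.0 in young, 59.6, 64.4 and 59.8 in middle-aged, and 17.8, 16.9 and 15.1 in old ovaries. The old values lay below the others, with a log2 fold change of -1.66 over young ovaries. The 6 younger ovaries spanned 1.61-fold for NELL1, against 2.29-fold to 8.20-fold for the brightest probe sets of the other 6 genes. Young ovary 1 was the highest array for NELL1, whereas it was the lowest young ovary for the brightest probe sets of the other 6 genes.

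**Figure D1:**
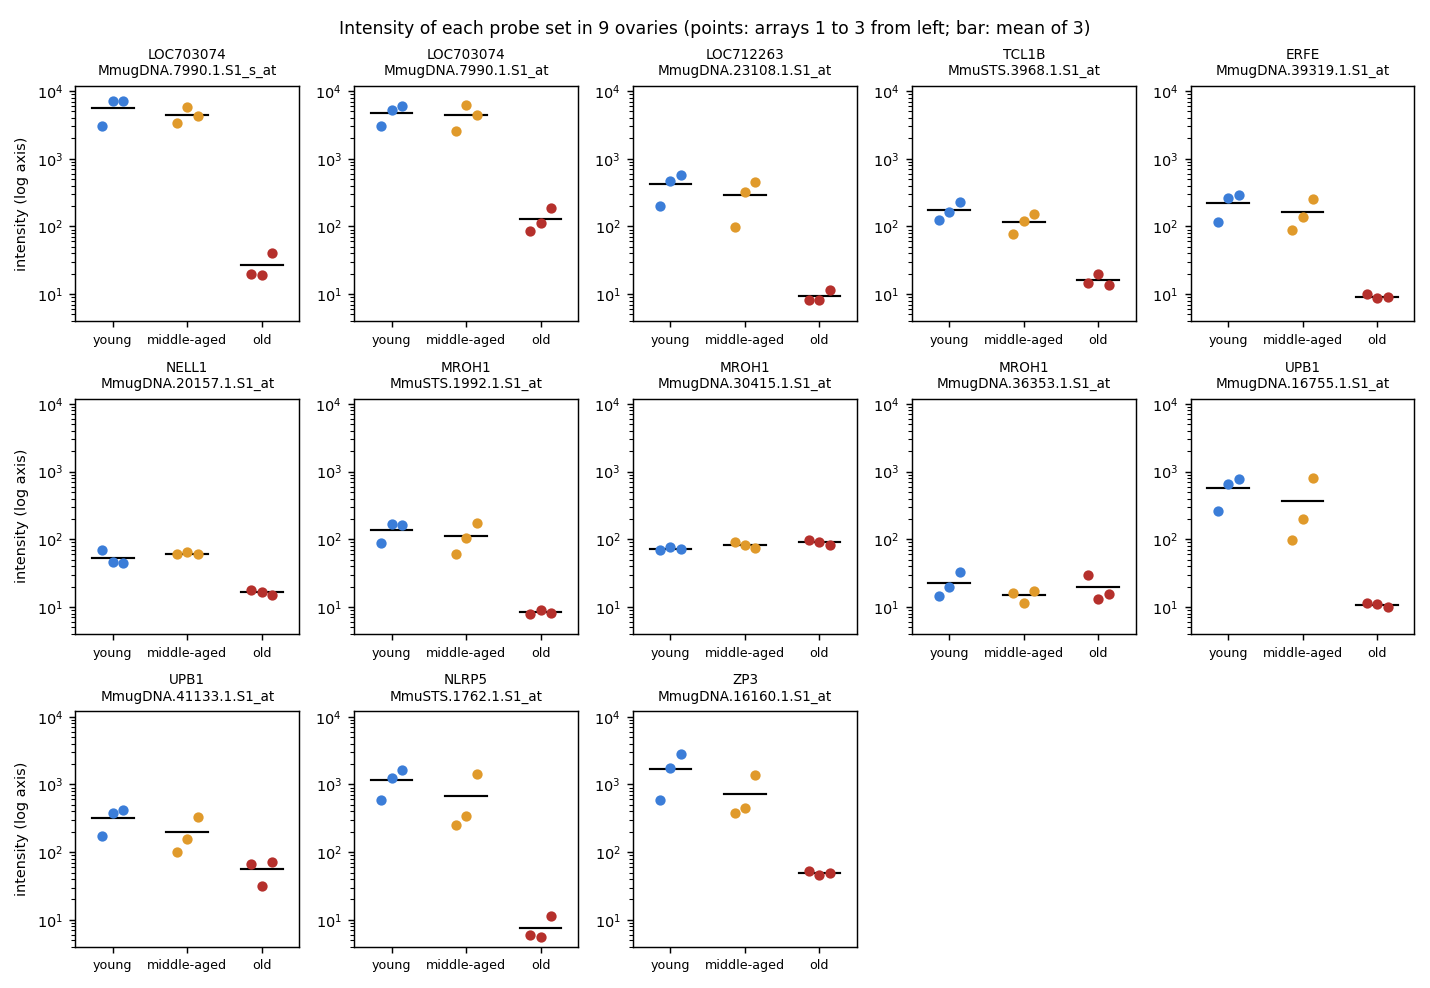
Intensity on a log axis of the 11 probe sets of the 7 genes and of NLRP5 and ZP3 in young, middle-aged and old ovaries, where each point is 1 array (1 to 3 from the left) and the bar is the mean of 3. The old ovaries lie below all 6 others on 9 of the 11 probe sets, beside 4.36% of all probe sets. Of the 3 MROH1 probe sets 2 show no such gap.

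Group means and their spread were as follows. LOC703074 (MmugDNA.7990.1.S1_s_at) averaged 5717 ± 2283 in young, 4477 ± 1240 in middle-aged and 26.6 ± 12.4 in old ovaries (SD, n = 3 each). UPB1 (MmugDNA.16755.1.S1_at) averaged 567 ± 269, 364 ± 376 and 10.8 ± 0.747, and LOC712263 419 ± 195, 291 ± 180 and 9.30 ± 2.02 in the same order. The spread among middle-aged ovaries was thus as large as their mean for UPB1. ERFE averaged 222 ± 93.8, 161 ± 87.1 and 9.19 ± 0.624, TCL1B 174 ± 54.1, 116 ± 37.3 and 16.2 ± 3.44, and NELL1 53.5 ± 14.8, 61.3 ± 2.73 and 16.6 ± 1.38 in the same order. MROH1 (MmuSTS.1992.1.S1_at) averaged 139 ± 45.8 in young, 112 ± 57.1 in middle-aged and 8.33 ± 0.548 in old ovaries. ERFE, LOC712263, MROH1, UPB1 (MmugDNA.16755.1.S1_at) and NLRP5 had old values at or near the first quartile of their arrays, where intensities may not exceed background, so their fold changes have no firm size. With values below each array's first quartile raised to it, the log2 fold changes of old over young ovaries were -4.43 for ERFE, -5.25 for LOC712263, -3.83 for MROH1 (MmuSTS.1992.1.S1_at) and -6.74 for NLRP5, while that of UPB1, whose old values lay just above the quartile, was still -5.57.

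For old against young ovaries, limma called 8 of the 11 probe sets lower, covering all 7 genes, and 0 higher, where a call needs a Benjamini-Hochberg adjusted p below 0.05 together with a 1.5-fold difference or more. Of all probe sets, 0.129% were called lower and 0.0265% higher, and since the fall itself chose the genes nothing is read from this count. For old against middle-aged ovaries 6 of the 11 were called lower, covering 5 genes, where the share of all probe sets was 0.0341%, and the same holds for this count. LOC712263 and UPB1 were the genes without a call there, with log2 fold changes of -4.72 and -4.53. Both comparisons share the old arrays. The old ovaries lay below all 6 others on 9 of the 11 probe sets and on 4.36% of all probe sets. The median log2 fold change of the 11 was -4.00 for old over young and -3.62 for old over middle-aged ovaries, against 0.01 and 0.02 over all probe sets tested. These counts rested on single arrays. The count of 8 was 1 without young ovary 2, 2 without young ovary 3 and 5 without middle-aged ovary 2. The count of 6 lay between 1 and 5 when any 1 array was left out. With values below each array's first quartile raised to it, the counts were 6 and 1 in that order.

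The contrast of middle-aged with young ovaries was not itself used to choose the genes and asks whether their levels had already shifted by 7 to 8 years. Its arrays also enter the comparisons with old ovaries, so it is not independent of the choice. No probe set of the 7 genes passed the test there with limma. An unadjusted limma p under 0.05 was found for 0 of 11, beside 3.18% of all probe sets. Estimates were lower for 9 of the 11, beside 51.7% of all probe sets. Over all probe sets 0.0019% were called lower and 0% higher. UPB1 had the lowest estimates, with log2 fold changes of -1.04 ± 0.71 (MmugDNA.16755.1.S1_at) and -0.80 ± 0.52 (MmugDNA.41133.1.S1_at) for middle-aged over young ovaries (SE, n = 3 each). LOC712263 stood at -0.66 ± 0.58, TCL1B at -0.59 ± 0.30, ERFE at -0.49 ± 0.43 and MROH1 (MmuSTS.1992.1.S1_at) at -0.38 ± 0.38. LOC703074 stood at -0.29 ± 0.41 and -0.15 ± 0.40 on its 2 probe sets. NELL1 had a positive estimate of 0.23 ± 0.18, and the other MROH1 probe sets had 0.18 ± 0.12 (MmugDNA.30415.1.S1_at) and -0.51 ± 0.37 (MmugDNA.36353.1.S1_at). The smallest unadjusted p of the 11 was 0.0846, for TCL1B, and the limma adjusted p was 1 for all of them. NLRP5 and ZP3 had estimates of -1.10 ± 0.66 and -1.21 ± 0.63, also without a call. The standard errors leave room for changes of about the size of the estimates, so the genes are not shown to be level between these ages.

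**Figure D2:**
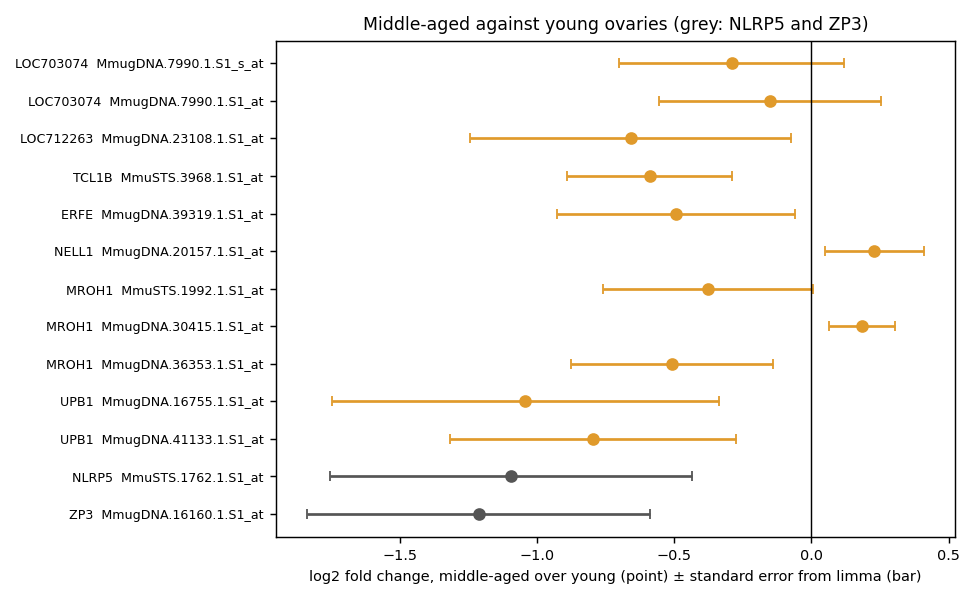
Log2 fold change of middle-aged over young ovaries for the 11 probe sets of the 7 genes and, in grey, NLRP5 and ZP3, with the standard error from limma as the bar. Of the 11 probe sets 9 have estimates below 0, beside 51.7% of all probe sets, and none passed the test.

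The young and middle-aged ovaries differed among themselves, and this variation was not itself used to choose the genes, although the same arrays entered that choice. Across these 6 arrays UPB1 followed NLRP5 most closely, followed by ERFE, MROH1 (MmuSTS.1992.1.S1_at), TCL1B and LOC712263, whereas LOC703074 and NELL1 did not pass the test. For log2 intensities of the brightest probe sets, Pearson's r with NLRP5 was 0.99 for UPB1 (exact permutation p = 0.00278, adjusted p = 0.0111) and 0.91 for TCL1B (exact permutation p = 0.00278, adjusted p = 0.0111). It was 0.95 for ERFE (exact permutation p = 0.0139, adjusted p = 0.0204), 0.92 for MROH1 and 0.86 for LOC712263 (for each of both, exact permutation p = 0.0153 and adjusted p = 0.0204). All of these tests were two-sided over the 720 orders of the 6 arrays, and adjusted over 8 relations, of which ZP3 with NLRP5 was another (r = 0.96, adjusted exact permutation p = 0.0204). The orders cross both age groups, so these tests do not part an age difference from variation between animals. With age group means subtracted, and no test made, r with NLRP5 was 0.99 for UPB1, 0.95 for ERFE and 0.93 for MROH1. It was then 0.87 for TCL1B, 0.84 for LOC712263, 0.46 for LOC703074 and -0.53 for NELL1. LOC703074 had r = 0.53 (exact permutation p = 0.240) and NELL1 r = -0.64 (exact permutation p = 0.203, adjusted p = 0.232).

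Of the 7 genes, only UPB1 and TCL1B passed the test on ranks. Spearman's rho with NLRP5 was 0.94 for UPB1 and TCL1B (adjusted exact permutation p = 0.0444 each) and 0.89 for ERFE and LOC712263 (adjusted exact permutation p = 0.0533 each). It was 0.77 for MROH1 (adjusted exact permutation p = 0.137), 0.60 for LOC703074 and -0.49 for NELL1. Without the 2 arrays farthest from the median of NLRP5, r over the remaining 4 was 0.99 for UPB1, ERFE and LOC712263, 0.95 for MROH1, 0.80 for TCL1B, 0.79 for LOC703074 and -0.80 for NELL1. With 1 array left out at a time, r stayed between 0.98 and 1.00 for UPB1, between 0.91 and 0.98 for ERFE, between 0.86 and 0.98 for MROH1, between 0.83 and 0.94 for TCL1B and between 0.75 and 1.00 for LOC712263. The number of the 7 genes past the test was 5 with 6 arrays and 0 to 4 with 5 arrays, where only 120 orders exist. It was 0 without young ovary 3 or without middle-aged ovary 1, 2 without young ovary 2 or without middle-aged ovary 3, and 4 without either of the others.

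The relation with NLRP5 can be placed among all probe sets as a description. Over the 6 arrays, the median r of all probe sets with NLRP5 was -0.10. The share of probe sets with an r at or above that of the gene was 0.0284% for UPB1, 0.432% for ERFE, 0.737% for MROH1 (MmuSTS.1992.1.S1_at), 1.04% for TCL1B and 1.85% for LOC712263. It was 13.4% for LOC703074 and 88.8% for NELL1. The second UPB1 probe set had r = 0.98, and the other MROH1 probe sets had -0.74 (MmugDNA.30415.1.S1_at) and 0.72 (MmugDNA.36353.1.S1_at). Genes of the oocyte marker list themselves had r with NLRP5 from -0.73 (SPO11, at low intensity) to 0.99 (ELAVL2). OOEP had 0.42 and NLRP4 0.68. Genes of the other lists used here ranged from -0.97 (STAR) to 0.91 (CNTNAP4). A high or low r therefore does not sort oocyte genes from others. Each r compares 6 whole-ovary samples and cannot name the cell that makes a transcript.

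**Figure D3:**
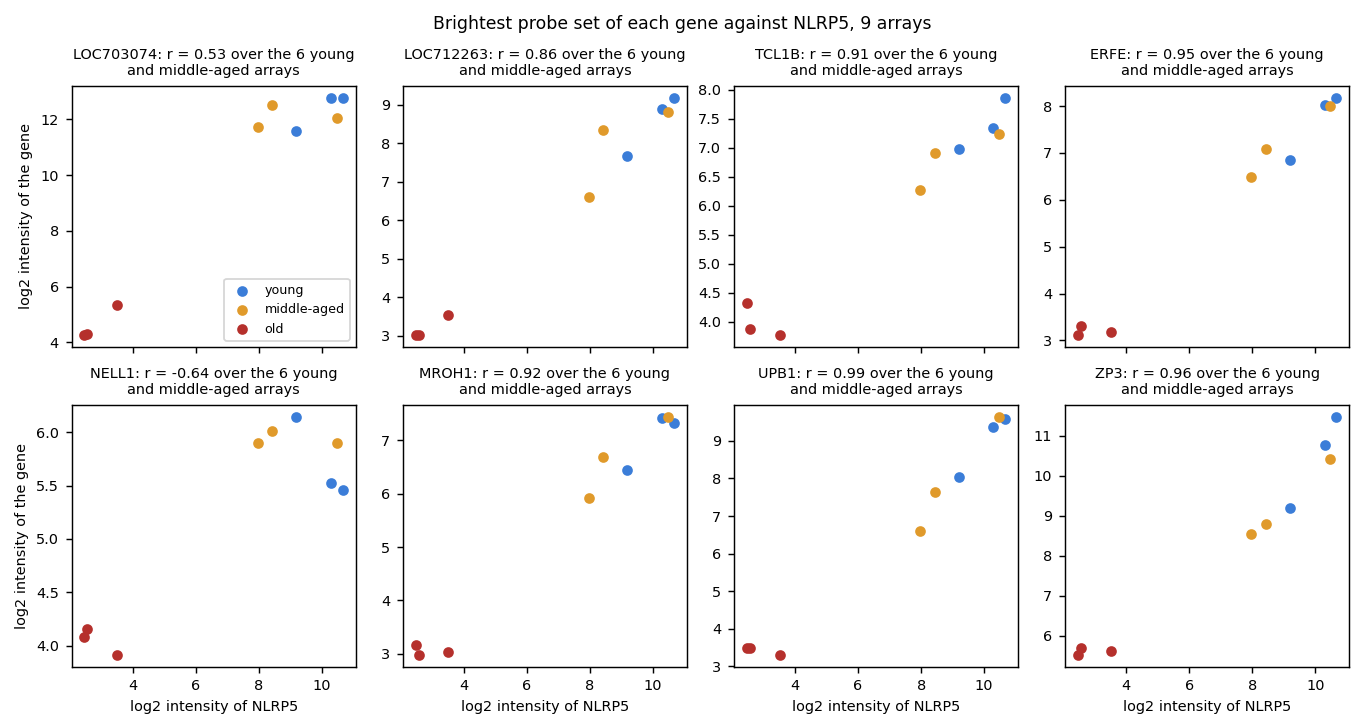
Log2 intensity of the brightest probe set of each of the 7 genes and of ZP3 against log2 intensity of NLRP5, where each point is 1 of 9 arrays coloured by age group and r is Pearson's r over the 6 young and middle-aged arrays. The panels of UPB1 (0.99) and ERFE (0.95) form a line among the younger ovaries, whereas NELL1 (-0.64) slopes the other way.

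ZP3 was set against the same genes on the same arrays, so these relations are not independent of those above. Pearson's r was 0.95 for ERFE, 0.93 for UPB1, 0.92 for TCL1B and 0.84 for LOC712263, which passed an adjusted exact permutation test over 7 relations (adjusted p = 0.0413, 0.0413, 0.0292 and 0.0413 in that order). It was 0.88 for MROH1 and -0.82 for NELL1 (adjusted exact permutation p = 0.0567 each), and 0.67 for LOC703074 (adjusted exact permutation p = 0.132). Without 1 of the arrays, the number past the test was 0 to 3. It was 0 without young ovary 2, young ovary 3 or middle-aged ovary 1, and 2 without middle-aged ovary 3.

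Among themselves, 5 of the 7 genes varied closely together. Over the 6 younger arrays r between any 2 of LOC712263, TCL1B, ERFE, MROH1 and UPB1 lay between 0.87 and 0.98, the highest being ERFE with MROH1. LOC703074 had r between 0.58 and 0.79 with these 5 genes, and NELL1 had r between -0.80 and -0.59 with all 6 others. Of the 9 probe sets that set the old ovaries apart, 7 were lowest among the 6 in middle-aged 1 and 5 were highest in young 3. These values are a description of 6 arrays.

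Across all 9 arrays, the genes with the most similar profile were largely oocyte genes, which is a description, since the fall in old ovaries that chose the 7 genes dominates it. The likeness is Pearson's r of log2 intensity over 9 arrays among 1873 other named genes whose range was at least 2 on the log2 scale. ZAR1, a maternal factor of the egg-to-embryo transition, came first for ERFE (r = 0.998), MROH1 (r = 0.998) and LOC712263 (r = 0.994). LOC703074 was most like NLRP4 (r = 0.994), NLRP11 (r = 0.992) and BCL2L10 (r = 0.984), and TCL1B was most like BCL2L10 (r = 0.990), ELAVL2 (r = 0.989) and ZAR1 (r = 0.989). For UPB1 the closest was NLRP14 (r = 0.997), then ZAR1 (r = 0.996) and ELAVL2 (r = 0.994). ELAVL2 was also second for ERFE (r = 0.995) and MROH1 (r = 0.995), before NLRP5 for ERFE (r = 0.993) and BCL2L10 for MROH1 (r = 0.994). LOC712263 had BCL2L10 (r = 0.992) and NLRP5 (r = 0.989) next. NELL1 had WASF1 (r = 0.948), NLRP11 (r = 0.933) and TMEFF1 (r = 0.932), of which WASF1 helps to build the actin network. Over the 6 younger arrays alone these 3 had r of 0.37, -0.53 and 0.30 with NELL1, whereas NLRP14 kept 1.00 with UPB1 and NLRP4 kept 0.97 with LOC703074.

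The lists of cell type markers place these values in the tissue. The oocyte list, of which 29 of 47 genes were measured, had a summed intensity of 3706 to 7913 in young, 2782 to 7137 in middle-aged and 1227 to 1495 in old ovaries. On 20 of its 29 genes the old ovaries lay below all others, beside 4.36% of all probe sets. With limma 7 were called lower in old than in young ovaries, beside 0.129% of all probe sets, with none higher. These were BCL2L10 (log2 fold change -6.12, adjusted p = 0.0124), FIGLA (-5.48, adjusted p = 0.0231), ELAVL2 (-5.27, adjusted p = 0.0160), NLRP4 (-5.19, adjusted p = 0.00389), ZAR1 (-4.80, adjusted p = 0.0215), NLRP11 (-3.97, adjusted p = 0.00594) and OOEP (-2.87, adjusted p = 0.0215). FIGLA is a transcription factor that oocytes need to form primordial follicles, and OOEP is a partner of NLRP5 in the subcortical maternal complex. Of the 29 estimates of old over young ovaries, 26 were lower and 3 higher, and 47.8% of all probe sets had lower estimates. Among other defining markers DAZL had -2.69, with every old ovary below all others. ZP1, BMP15 and NOBOX had -0.61, -0.39 and -0.36 without such a gap. ZP4 had 0.83, averaging 169 in young and 306 in old ovaries. The study, in contrast, names ZP4 among its differentially expressed reproduction genes without its mark for raised levels. The source of this difference was not tested. NLRP7 and ZP4 had the highest old means of the list, 431 and 306, and neither showed the gap. DDX4, ZP2, GDF9 and H1-8, which define oocytes, were not analysed here.

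For other cell types the marker lists had wide and often overlapping ranges. The summed granulosa list, 11 of 13 genes, was 14163 to 34483 in young, 15891 to 28997 in middle-aged and 9204 to 20183 in old ovaries. SERPINE2, the brightest of them, averaged 15606, 14910 and 8524 in the same order. Its genes did not move alike, with 8 lower and 3 higher estimates of old over young ovaries. AMH had -3.88, and INHA and INHBA had 2.67 and 1.89. The summed theca list, 5 of 10 genes, was 1018 to 3912 in young, 1029 to 5171 in middle-aged and 6024 to 25281 in old ovaries. STAR, the brightest of these, averaged 1237, 2115 and 12454 in that order. Endothelial markers, 8 of 9 genes, summed to 1975 to 2690 in young, 2571 to 5530 in middle-aged and 2527 to 10719 in old ovaries. Surface epithelium markers, 11 of 11 genes, summed to 6686 to 9187 in young, 2978 to 4416 in middle-aged and 2357 to 5290 in old ovaries. The stroma, smooth muscle and macrophage lists had old ranges that overlapped the middle-aged ones. Apart from the oocyte list, none had a gene called with limma in old against young or old against middle-aged ovaries. The absence of a limma call does not show that these markers were level. The study itself used another test, SAM, on these arrays and listed some of them for old against young ovaries. MRAP, THY1 and MYL9 were listed as raised. AMH, MSLN, KRT8, UPK1B, DSP, HSD17B1, FST and GATM were listed as reduced. The part of these cell types in the fall of the 7 genes was not tested.

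The relatives and pathway partners of the 7 genes were not chosen for how they moved, although the lists were written with earlier results of these arrays known. Of 118 such genes 84 were measured. None of the 84 was called in old against young or old against middle-aged ovaries with limma, while 23 and 15 had an unadjusted p under 0.05, as did 13.5% and 7.87% of all probe sets. Their median log2 fold change was -0.06 for old over young and -0.04 for old over middle-aged ovaries, against 0.01 and 0.02 over all probe sets. The lack of a limma call does not show that they were level. With SAM, the study listed DNMT3A, DNMT3B, HELLS and TYMS as reduced with age in its comparison of old and young ovaries. The study also named TUBB among its differentially expressed genes, without its mark for raised levels. It listed THBS1 as reduced in its comparison of old and middle-aged ones. Its qRT-PCR also gave reduced levels of DNMT3A and HELLS in old ovaries against both younger groups.

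The stella and methylome list, 13 of 17 genes, had the lowest median, at -1.10 for old over young ovaries. On 7 of its genes every old ovary lay below all others, as on 4.36% of all probe sets. UHRF1, which guides maintenance methylation to newly copied DNA, averaged 442 in young, 362 in middle-aged and 33.7 in old ovaries, with a log2 fold change of -3.86 for old over young with limma adjusted p = 0.0642. DPPA5, a gene of early germ and embryonic stem cells, averaged 90.7 in young, 87.3 in middle-aged and 7.32 in old ovaries, with a log2 fold change of -3.59 with limma adjusted p = 0.0642. Both passed with only the brighter probe sets tested (limma adjusted p = 0.0474 each). HELLS, a chromatin remodeller that DNA methylation requires, had -1.80 (limma adjusted p = 0.165).

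The 12 measured of 27 tubulin and tubulin folding genes had a median of -0.21. TUBB, a widely used beta tubulin, averaged 4775 in young, 3894 in middle-aged and 2611 in old ovaries, with a log2 fold change of -0.86 for old over young (limma adjusted p = 0.237). TUBAL3 had -0.60 and TUBD1 -0.44 (limma adjusted p = 0.292 and 0.285). No tubulin on the list had every old ovary below all others, which both LOC703074 probe sets had. TUBB8, the beta tubulin of the human oocyte spindle, was not analysed here.

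In the TCL1 and AKT list, 8 of 11 genes, the median was -0.08. AKT1, the kinase that TCL1 binds, had a log2 fold change of -1.15 for old over young ovaries (limma adjusted p = 0.435). MTOR, a kinase downstream of AKT, had -0.29 and the TCL1 relative MTCP1 -0.16 (limma adjusted p = 0.421 and 0.600). The erythroferrone, CTRP and hepcidin list, 22 of 25 genes, had a median of 0.30. EPOR, the erythropoietin receptor, averaged 29.6 in young, 27.3 in middle-aged and 147 in old ovaries, with a log2 fold change of 1.99 (limma adjusted p = 0.190), and it passed without old ovary 3 (2.65, limma adjusted p = 0.0444). ID1, a target of the BMP signals that also drive hepcidin, had 1.62 and the ERFE relative C1QTNF6 -1.18 (limma adjusted p = 0.412 and 0.197).

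The pyrimidine list, 13 of 18 genes, had a median of -0.04. TYMS, which makes thymidylate for DNA, had a log2 fold change of -2.14 for old over young ovaries (limma adjusted p = 0.0929). CDA, which deaminates cytidine, had 1.60 (limma adjusted p = 0.135), and DPYS, the enzyme just before UPB1 in pyrimidine breakdown, had 0.79 (limma adjusted p = 0.370). DPYS averaged 112 in young, 126 in middle-aged and 190 in old ovaries, so its estimate ran against that of UPB1. The NELL list, 12 of 12 genes, had a median of -0.10. RUNX2, a bone transcription factor, had 1.39, the close relative NELL2 -1.14 and THBS1, a matrix protein, -0.80 (limma adjusted p = 0.692, 0.508 and 0.481). Of the MROH family 4 of 8 genes were measured, with a median of 0.10, and MROH2A had -1.28 (limma adjusted p = 0.237), MROH2B 0.26 and MROH9 0.18.

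**Figure D4:**
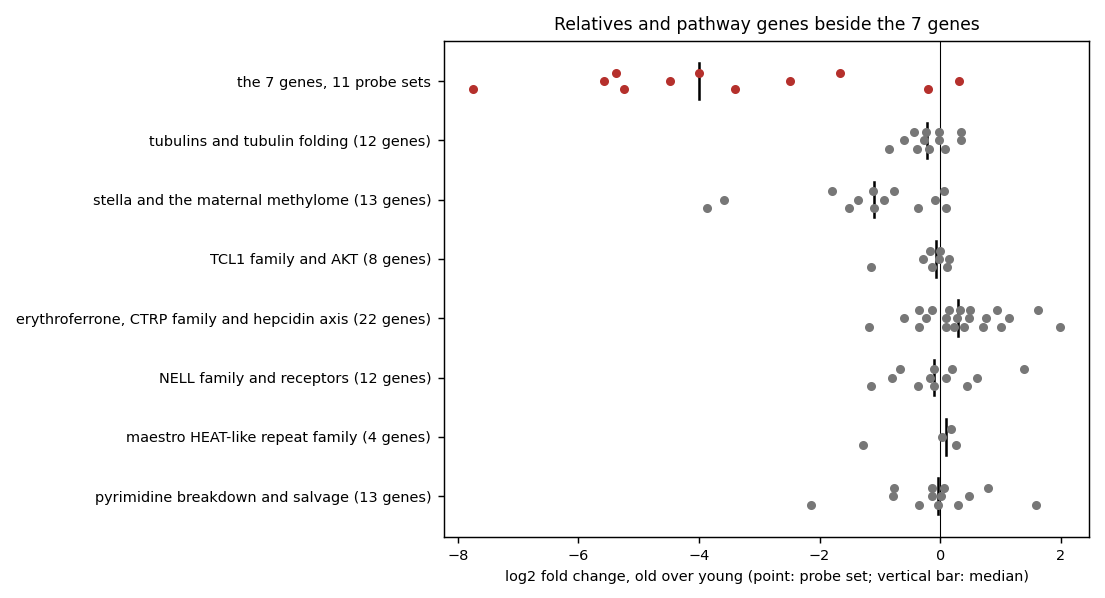
Log2 fold change of old over young ovaries for the 11 probe sets of the 7 genes (top row) and the measured genes of 7 lists of relatives and pathway partners, where each point is a probe set and the vertical bar is the median of the row. The medians of the lists lie between -1.10 and 0.30 against -4.00 for the 7 genes, which were chosen for their fall.

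Genes that lie beside the 7 genes in the RefSeq order were read as well, a choice made after the values were seen. Up to 2 measured protein-coding neighbours on each side gave 26 genes. None of the 26 was called with limma in old against young or old against middle-aged ovaries, while 7 and 5 had an unadjusted p under 0.05, beside the same 13.5% and 7.87% of all probe sets. The estimates of old over young ovaries were lower for 18 and higher for 8 of them, with a median of -0.05, and 47.8% of all probe sets had lower estimates. BDKRB1, a bradykinin receptor near TCL1B, had the lowest estimate at -2.998, and CACNA1B, a calcium channel near LOC703074, the highest at 1.46. GUCD1, next to UPB1, had -0.66, and ILKAP, after ERFE, had -0.52.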

How the data were processed

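Ovarian RNA of 3 young, 3 middle-aged and 3 old monkeys was measured on 9 one-colour arrays. The intensity values were deposited by the authors on a linear scale, made with RMA per the labels (version not given in the sources used here). The methods section instead describes LuxScan, LOWESS and dye reversal. The 99 control probe sets were left out, and log2 values of the remaining 52766 were used with no further normalization or filter. Symbols came from the array annotation (24956 probe sets with 1 symbol, 361 with several, which were not named). limma 3.58.1 in R 4.3.3 fitted a mean for each age group to all 9 arrays, with Benjamini-Hochberg adjustment over all probe sets, and a call needed an adjusted p below 0.05 together with a 1.5-fold difference or more. The script was tested on simulated data. Where a gene had several probe sets, the one of highest mean intensity stood for it. Correlations were computed with scipy 1.17.1 and numpy 2.4.6 in Python 3.11.15, and permutation tests ran over all orders of the arrays.

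Named genes are the 7 genes, NLRP5 and ZP3 with all their probe sets, list genes called in an old contrast, up to 3 others per family or pathway list by absolute fold change, and the 3 most similar genes per gene. HBB, AHSP, EPB42, KLF1, GATA1 and ALAS2 are given as erythroid markers, and the neighbours named were chosen after their values were seen. The genes and lists were chosen with earlier results of these data known. Alternatives were centring or quantile normalization, brighter probe sets only, a fit of the compared groups alone, another variance prior, no fold minimum, averaged probe sets, a replicate block and arrays left out. A floor at the first quartile, the probe set with the highest mean log2 intensity, and correlations without 1 array were added after seeing the data. Depth has no meaning for arrays, and their number limits the precision: 3 arrays against 3 allow no exact permutation p below 0.1. Each array is a separate animal. Batches and scan dates are not given in the sources used here, and no sequence was at hand to print.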

Additional observations from a re-analysis of the deposited data

How the results depend on the processing

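The member counts with old ovaries, which describe how the genes were chosen and test nothing, moved with the setting. For old against young ovaries, 8 of the 11 probe sets were called, 1 to 8 with any 1 array left out and 0 without the arrays numbered 3, a fit of 2 arrays a group. For old against middle-aged ovaries, 6 were called, 3 after centring, 2 with only the compared groups fitted, 1 to 5 with 1 array left out, 0 without the arrays numbered 3 and 1 with the floor at the first quartile, against 6 with that floor in old against young ovaries. LOC703074 (MmugDNA.7990.1.S1_s_at) lost its call against young ovaries only without the arrays numbered 3, with a log2 fold change between -8.14 and -6.49 over 19 alternatives. No alternative called a member probe set between middle-aged and young ovaries. Among relatives and pathway genes in old against young ovaries, 2 were called with brighter probe sets only (UHRF1 and DPPA5), and leaving out 1 array gave 0 to 1 (EPOR, without old ovary 3). Of the 7 genes, 5 passed with NLRP5 and 0 to 4 with 1 array left out. With ZP3 4 passed, 1 after quantile normalization and 0 to 3 with 1 array left out. The r of MROH1 with NLRP5 turned to -0.74 when the probe set with the highest mean log2 intensity (MmugDNA.30415.1.S1_at) stood for the gene. With age group means subtracted, no test was made. The causes of these moves were not tested.

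The labels do not say that replicate numbers mark shared animals or batches, and the arrays did not meet the criterion for pairing, a correlation of deviations from group means over 0.1 in every same-numbered pair. It was over 0.1 in 5 of 9 such pairs and above 0 in 8, between -0.02 and 0.41 with a median of 0.13, against -0.42 to 0.25 with a median of -0.12 over 18 pairs of different numbers. Young ovary 1 and the arrays numbered 3 correlated best with their own number in both other groups, and the other arrays did not. Among the arrays numbered 3 the correlations were 0.41 (young with middle-aged), 0.25 (young with old) and 0.35 (middle-aged with old). With the replicate number as a block, calls over all probe sets in old against young ovaries were 177 lower and 52 higher, against 68 and 14 without it, and 8 and 7 member probe sets were called in old against young and old against middle-aged ovaries, and 2 relatives and pathway genes in old against young ovaries (UHRF1 and DPPA5).

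Detection calls are not given, so fold changes of genes with old values near the first quartile have no firm size, and 3 arrays a group limit the precision of every estimate.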
